A study of Mus musculus with 9 samples.

Results

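Metallothioneins and genes of zinc and copper handling were followed in the livers of obese mice given a plant extract. The group holds 9 genes chosen by symbol: the metallothionein genes Mt1 and Mt2, their regulator Mtf1, the zinc transporter family genes Slc30a1, Slc30a10, Slc39a14 and Slc39a4, and the copper genes Cp and Atp7b. All 9 were found among the 22206 probe sets of the Clariom S mouse array, each with 1 probe set. The liver RNA came from male mice of the strain C57BL/6JHamSlc-ob/ob, which lack functional leptin in every group compared, were 6 weeks old when obtained and ate standard chow. They received by gavage for 42 days either vehicle, 50 mg/kg (VE50) or 100 mg/kg (VE100) of an extract of Vigna umbellata, the rice bean. Each group has 3 arrays, and the labels do not say that each array is a separate animal, so p-values measure the spread between arrays, which may be technical. No lean mice were analysed here.

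Metallothioneins are small cysteine-rich proteins that bind zinc and copper in the cell. Zinc activates the transcription factor MTF1, the product of Mtf1, which binds metal response elements in the promoters of Mt1, Mt2 and the zinc exporter gene Slc30a1. In liver, metallothionein genes also respond to glucocorticoids and to the cytokines of the acute phase. SLC30 transporters carry metal out of the cytosol and SLC39 transporters carry it in. SLC30A10 is known as a manganese exporter in spite of its place in the zinc transporter family, so 1 of the 9 genes is not known mainly for zinc or copper.

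The promoter windows of 4 members are shown. They hold the letters of the metal response element core that relate Mt1, Mt2 and Slc30a1 to MTF1. Slc30a10 is also the only member past the study's criterion against vehicle, which uses p before adjustment. After adjustment over all 9 arrays it did not pass. Each window runs from 250 bases before to 50 after the RefSeq start on build GRCm38.p6, 5′ to 3′, and all 4 genes lie on the plus strand. Capitals mark matches to TGCGCNC or TGCACNC on either strand. The windows lie at chr8:94178839-94179138 (Mt1), chr8:94172368-94172667 (Mt2), chr1:191906531-191906830 (Slc30a1) and chr1:185454598-185454897 (Slc30a10).
Mt1: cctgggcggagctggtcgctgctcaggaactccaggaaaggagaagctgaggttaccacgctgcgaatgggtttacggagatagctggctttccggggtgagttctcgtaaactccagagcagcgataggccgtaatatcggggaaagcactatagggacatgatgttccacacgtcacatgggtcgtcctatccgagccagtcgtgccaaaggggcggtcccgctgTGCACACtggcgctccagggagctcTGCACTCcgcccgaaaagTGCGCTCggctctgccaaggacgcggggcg
Mt2: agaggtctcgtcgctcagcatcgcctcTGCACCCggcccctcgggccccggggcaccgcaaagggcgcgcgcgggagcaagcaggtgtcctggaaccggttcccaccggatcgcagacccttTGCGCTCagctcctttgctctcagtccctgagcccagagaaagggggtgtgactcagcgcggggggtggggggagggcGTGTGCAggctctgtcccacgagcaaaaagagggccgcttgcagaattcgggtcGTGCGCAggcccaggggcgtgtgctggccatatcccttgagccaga
Slc30a1: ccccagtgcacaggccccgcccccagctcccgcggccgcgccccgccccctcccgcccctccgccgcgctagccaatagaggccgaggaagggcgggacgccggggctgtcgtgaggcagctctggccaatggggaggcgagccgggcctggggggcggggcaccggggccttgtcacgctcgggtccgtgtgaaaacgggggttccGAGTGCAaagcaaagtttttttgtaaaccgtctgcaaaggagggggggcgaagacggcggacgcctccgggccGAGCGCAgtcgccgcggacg
Slc30a10: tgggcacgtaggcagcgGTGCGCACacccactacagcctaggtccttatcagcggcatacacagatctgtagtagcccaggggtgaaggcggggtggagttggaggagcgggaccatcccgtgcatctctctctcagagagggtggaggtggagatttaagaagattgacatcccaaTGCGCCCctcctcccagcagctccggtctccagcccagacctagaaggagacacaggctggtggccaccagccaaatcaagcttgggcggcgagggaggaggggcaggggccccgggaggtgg

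Mt2 held 4 matches to the metal response core, Mt1 held 3, Slc30a10 held 3 and Slc30a1 held 2. In Slc30a10, 2 of the matches overlap on opposite strands and share most of their bases. Of the other members with a window, Atp7b held 1 match, and Mtf1 and both windows of Cp held 0. Of all 32851 RefSeq windows of this length, 25.7% held at least 1 match, 7.11% at least 2, 1.97% at least 3 and 0.517% at least 4. The antioxidant response core TGACNNNGC, searched on both strands, occurred once in Mt2 and once in Slc30a1, and 12.4% of all windows held it. A match is a run of letters and not a shown binding site, and bases outside the windows were not searched. The RefSeq start, that of Mt1 in particular, may not be the main start used in liver, which was not tested. Counts and positions therefore hold for these windows only. Slc39a14 and Slc39a4 are named only.

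**Figure D1:**
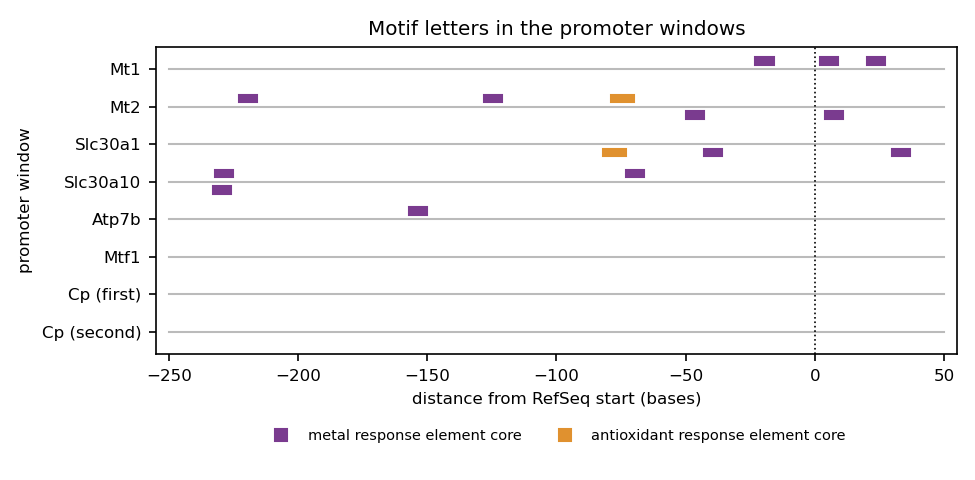
Matches to the metal response element core (purple) and the antioxidant response element core (orange) in the promoter windows of 7 members, by distance in bases from the RefSeq start; marks above a line lie on the gene's strand and marks below it on the other. Mt2 has 4 metal response matches and Mt1 has 3.

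Among the libraries, vehicle 3 stood apart. Across genes its signal correlated with the other arrays between 0.948 and 0.967, and it carried far more signal of the acute phase genes Saa1 (log2 signal 15.76, while the remaining 8 arrays ran from 5.57 to 9.75) and Saa2 (18.75, beside 7.84 to 11.81). Each member's differences from vehicle are given with and without it. The median of the negative less that of the positive control probe sets was -3.88 and -3.79 on vehicle 1 and 2, -3.41 on vehicle 3 and between -3.53 and -3.12 on the treated arrays. Without vehicle 3, treatment therefore cannot be told apart from this array-level difference. With every array kept, vehicle 1 and 2 still lay outside the range of the treated arrays, and vehicle 3 lay inside it. The part of this array-level difference in the differences from vehicle was not tested. A gene is called above the negative controls here if it exceeds 95% of those probe sets. On single arrays 14.3% to 20.2% of all probe sets did so. All 10 hepatocyte markers did so on every array, and their mean ran from 18.92 to 19.32. In bulk liver, fewer cells of a type and less RNA per cell cannot be told apart.

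Slc30a10, the manganese exporter gene, was the only member that passed the study's criterion against vehicle (fold above 1.1 and p below 0.05 before adjustment), and it was lower at both doses. Its log2 signal was 10.00, 10.22 and 9.49 on the vehicle arrays, 8.61, 9.21 and 8.80 on the VE50 arrays, and 9.05, 8.82 and 8.69 on the VE100 arrays. All 6 treated arrays lay below all 3 vehicle arrays. Vehicle averaged 9.90 ± 0.37 (SD, n = 3), VE50 averaged 8.87 ± 0.31 and VE100 averaged 8.85 ± 0.18. The log2 difference from vehicle was -1.03 ± 0.26 (SE) for VE50 and -1.05 ± 0.26 for VE100. No fold from this fit is given, since the treated arrays were not above the negative controls. The limma p was 0.00234 for VE50 and 0.00206 for VE100, and after adjustment over all probe sets it was 0.794 and 0.319. The doses share the vehicle arrays, so the second result does not repeat the first on new controls. The authors' deposited table of VE100 against vehicle is a filtered list of 1815 entries from the same arrays, so it is no separate evidence. Slc30a10 stands in it with a signed fold of -2.17, a p-value of 0.0015 and an FDR of 0.355. That fold has the same limit of background signal.

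The Slc30a10 result kept its direction and the study's criterion under all 17 alternatives at both doses. The differences lay between -1.24 and -0.87 for VE50 and between -1.28 and -0.89 for VE100. Without vehicle 3 they were -1.24 and -1.26. The direction was largely fixed in advance. Several alternatives change only the estimated spread. Leaving out 1 array could not turn the sign, since all treated arrays lay below all vehicle arrays. For VE100 the limma adjusted p of Slc30a10 was under 0.05 in 2 alternatives, at 0.0292 without vehicle 3 and 0.0409 with array weights. Without vehicle 3, 434 of 22206 probe sets had an adjusted p under 0.05, against 0 with all 9 arrays. The 2 alternatives refit the same arrays and are not independent. For Slc30a10 the adjusted p ran from 0.0292 to 0.658 for VE100 and from 0.0759 to 0.989 for VE50. In the deposited value table, where control probe sets can be compared, Slc30a10 was above the negative controls on 2 of 9 arrays, vehicle 1 and vehicle 2. There the VE50 and vehicle arrays touched, at 9.42 on VE50 2 and 9.41 on vehicle 3. Treated signal thus lay within the range of the negative controls, between their 88.8th and 94.8th percentile, which limits how far the size of the difference can be read. Vehicle 1 and vehicle 2 are also the arrays that lay outside the treated range in their control probe sets. The part of that array-level difference in the Slc30a10 result was not tested. Between the doses Slc30a10 differed by -0.02, with a 95% confidence interval from -0.59 to 0.55.

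**Figure D2:**
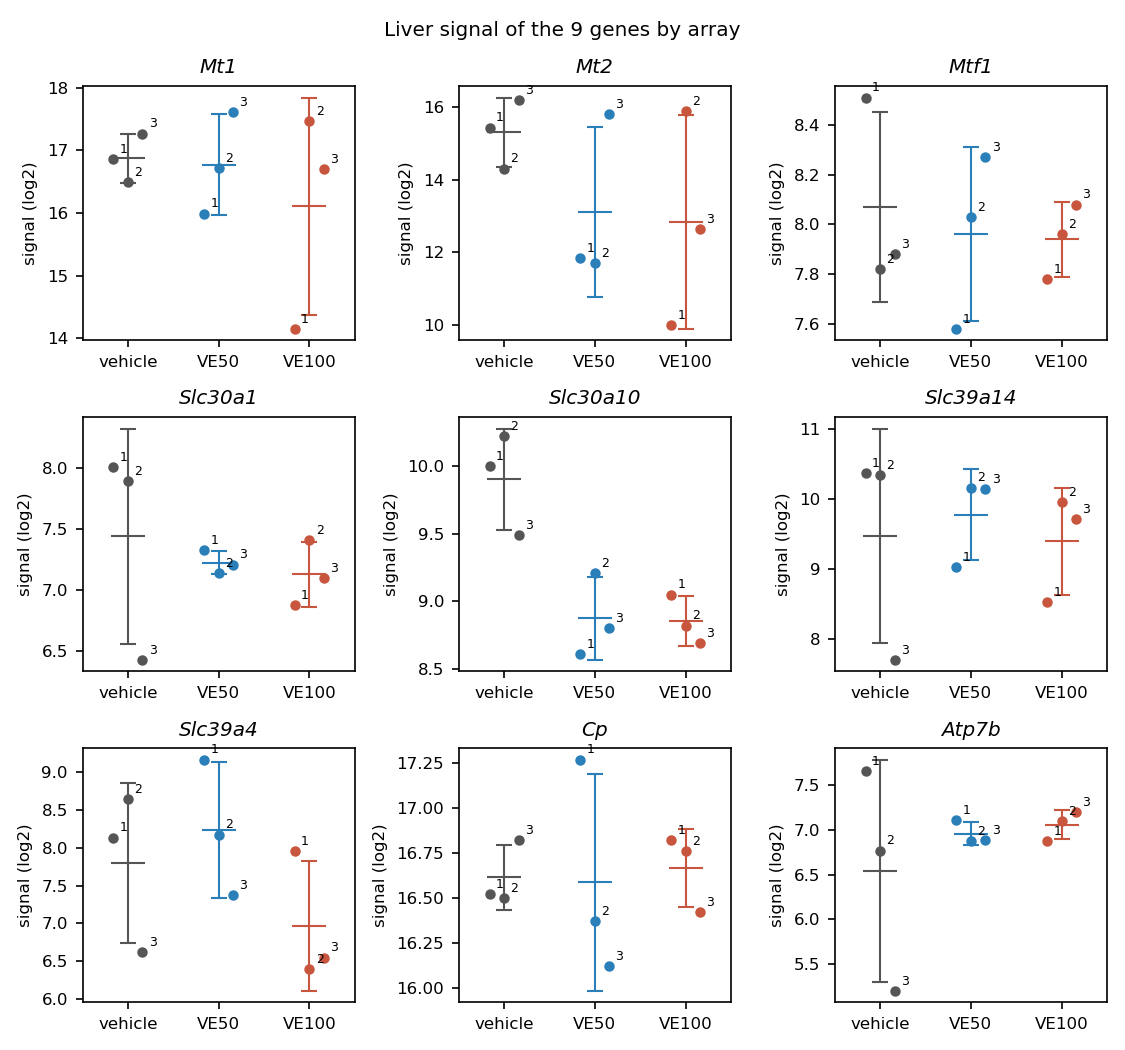
Signal of the 9 members on the log2 scale, with a point for each array (numbered by replicate), a bar at the group mean and whiskers of 1 SD (n = 3); each panel has its own axis. In the Slc30a10 panel all 6 treated arrays lie between 8.61 and 9.21, below the vehicle arrays; in the Mt2 panel the treated arrays run from 10.00 to 15.89.

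Mt2, which encodes metallothionein 2, had the widest spread of the members and was low on some treated arrays but not on others. Its log2 signal was 15.44, 14.31 and 16.20 in vehicle, 11.83, 11.70 and 15.81 in VE50, and 10.00, 15.89 and 12.63 in VE100. Thus 4 of the 6 treated arrays lay below every vehicle array, while VE50 3 and VE100 2 lay within the vehicle range. Vehicle averaged 15.32 ± 0.95 (SD, n = 3), VE50 averaged 13.11 ± 2.34 and VE100 averaged 12.84 ± 2.95. The difference from vehicle was -2.20 ± 1.41 (SE) for VE50, with a 95% confidence interval from -5.33 to 0.92, and -2.48 ± 1.41 for VE100, with an interval from -5.60 to 0.65. Neither passed the study's criterion (limma adjusted p = 0.852 and 0.613). Single arrays decided this. Without VE50 3 the VE50 difference was -3.55 and passed the criterion, and without VE100 2 the VE100 difference was -4.00 and passed it. Without VE100 1 it was -1.06, and without vehicle 3 the differences were -1.76 and -2.04; none of these passed.

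Within groups, the signal of Mt2 varied more than that of 99.98% of all probe sets, by an SD pooled over the 3 groups of 2.24 on the log2 scale. Mt1, which encodes metallothionein 1, had a pooled SD of 1.13, above 98.7% of probe sets. Mt1 signal was 16.86, 16.49 and 17.27 in vehicle, 15.99, 16.72 and 17.61 in VE50, and 14.15, 17.47 and 16.70 in VE100. The groups overlapped: VE50 1 and VE100 1 lay below every vehicle array, VE50 3 and VE100 2 lay above every vehicle array, and the other treated arrays lay within their range. The difference from vehicle was -0.10 ± 0.73 (SE) for VE50 and -0.77 ± 0.73 for VE100, with intervals from -1.71 to 1.51 and from -2.38 to 0.85. Without VE100 1 the VE100 difference turned to 0.21, and without vehicle 3 the VE50 difference turned to 0.10 while that of VE100 was -0.57. Mt1 and Mt2 were above the negative controls on all 9 arrays.

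The metallothionein genes followed each other over the arrays. VE100 1 had the lowest signal of both, and VE50 3, VE100 2 and vehicle 3 had the 3 highest of both. Over the 9 arrays Pearson's r was 0.843 (exact permutation p = 0.00115, two-sided) and Spearman's rho was 0.817 (exact permutation p = 0.0108), in the only relation tested this way. The permutation ran over all arrays without regard to group, so differences between groups are part of r, rho and their p. It treats each array as a separate unit, which the labels do not state. Without the 2 arrays farthest from the median of Mt1, VE50 3 and VE100 1, r was 0.768 (exact permutation p = 0.0413) and rho 0.714 (exact permutation p = 0.0881). Mt1 and Mt2 are neighbouring paralogs on chromosome 8, and cross-hybridisation between their probes was not tested. By Pearson's r with the mean of Mt1 and Mt2 over 9 arrays, the most alike of 9861 brighter single-gene probe sets were Triap1 (0.952), Gpx6 (0.941), Zfp386 (0.925), Socs4 (0.919) and Hsd3b7 (0.910). Without vehicle 3 they were Triap1 (0.966), Emc3 (0.965), Hgsnat (0.952), Gpx6 (0.952) and Uqcrfs1 (0.932). These were chosen as the highest among many, so no test was made. Their own signal moved far less than that of Mt2. Triap1 ran from 4.55 to 5.97, close to the arrays' median signal of 5.07 to 5.28. Gpx6, Zfp386 and Socs4 were low too, at 7.04 or less on every array. In the deposited value table the 95th percentile of the negative controls was 9.10 to 9.76. A gene's values there can differ from the signal given here, and these 4 genes were not read in that table. Their signal may be background, which was not tested.

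Genes of the pathways known to induce metallothioneins are given array by array for comparison. Vehicle 3, with the highest Mt2 signal, also had the highest signal of Saa1, Saa2 and Lcn2 (15.71, against 7.09 to 12.34), which mark the acute phase. VE50 3 and VE100 2, close to it in Mt2, had Saa2 at 10.70 and 9.46, and VE100 1, lowest in Mt2, had Saa2 at 11.41. Fkbp5, a chaperone gene induced by glucocorticoids, was higher on every treated array (12.26 to 14.44) than on the vehicle arrays (10.90 to 11.53). Tsc22d3 and Zbtb16, also induced by glucocorticoids, did not overlap either. Tsc22d3 was at 9.30 to 9.52 in vehicle and 10.20 to 12.25 on treated arrays, and Zbtb16 at 7.16 to 8.50 and 8.87 to 11.36. Of all probe sets, 10.9% (VE50) and 13.6% (VE100) did not overlap with vehicle in either direction. These 3 genes are part of the 14 glucocorticoid genes below, of which 1 (VE50) and 2 (VE100) lay below 0. Without vehicle 3, 4 and 5 of the 14 did. The mean over 21 acute phase genes was 13.07, 13.21 and 15.01 in vehicle, 13.00 to 13.24 in VE50 and 12.57 to 13.09 in VE100. Over 14 glucocorticoid genes it was 9.76 to 11.22, 11.38 to 11.65 and 11.15 to 12.09. Of the acute phase genes 3 (VE50) and 4 (VE100) passed the criterion, all lower, and of the glucocorticoid genes 4 and 6, all higher; of all probe sets 6.12% and 9.48% passed. Without vehicle 3, where 13.5% and 16.6% of all probe sets passed, the acute phase genes went both ways, with 1 higher and 3 lower for VE50 and 2 higher and 3 lower for VE100. The glucocorticoid genes then had 4 higher and 0 lower for VE50 and 4 higher and 1 lower for VE100. The medians went from -0.41 and -0.61 to 0.02 and -0.14 for the acute phase and from 0.87 and 0.85 to 0.21 and 0.20 for the glucocorticoid genes. The part of either pathway in the metallothionein signal was not tested.

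**Figure D3:**
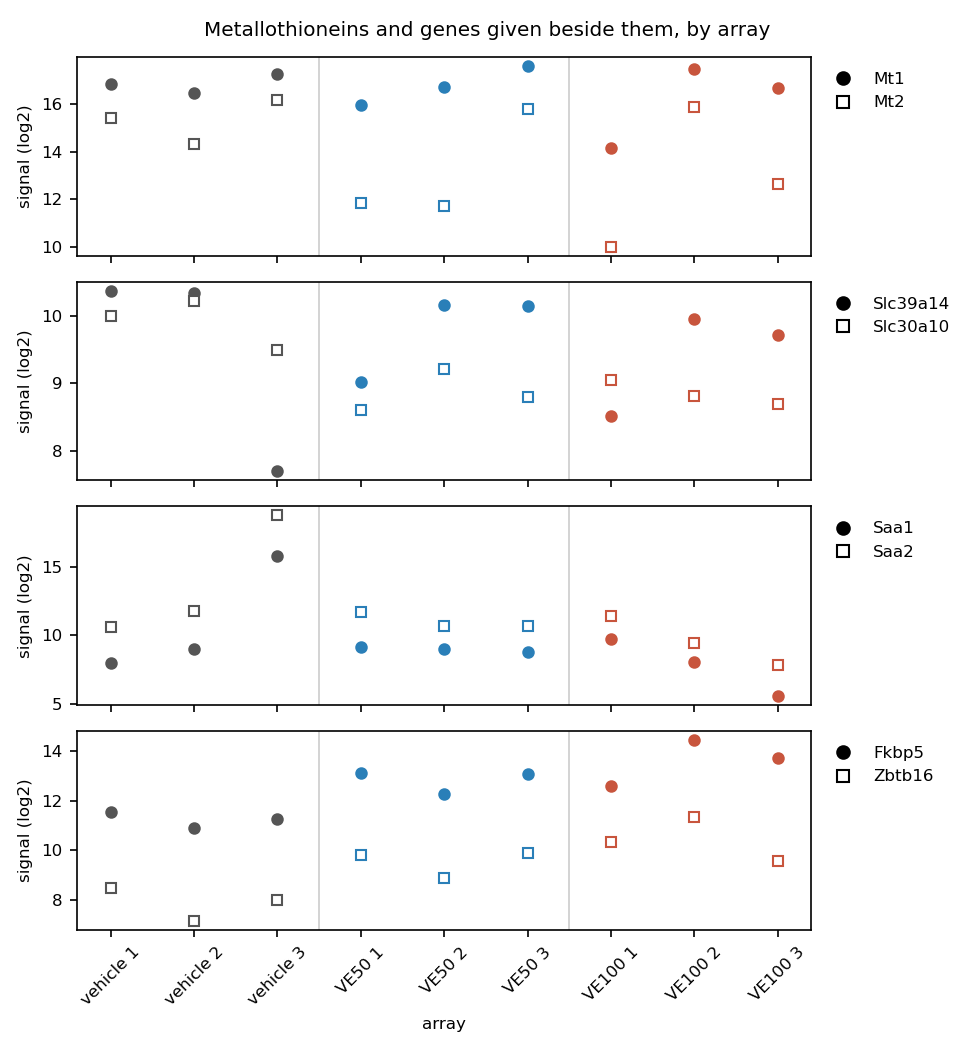
Signal on the log2 scale on each of the 9 arrays for the metallothionein genes Mt1 and Mt2, the transporter genes Slc39a14 and Slc30a10, the acute phase genes Saa1 and Saa2, and the glucocorticoid-induced genes Fkbp5 and Zbtb16; levels of different genes are not comparable. Mt2 is low on 4 treated arrays and near 16 on VE50 3 and VE100 2, while Saa2 is high on vehicle 3 alone.

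Mtf1, the gene of the zinc-sensing transcription factor, had nearly even signal, from 7.58 to 8.51 over the 9 arrays. Its difference from vehicle was -0.11 ± 0.26 (SE) for VE50 and -0.13 ± 0.26 for VE100, and without vehicle 3 it was -0.20 and -0.23. The zinc exporter gene Slc30a1, a known MTF1 target, had a signal of 8.01, 7.89 and 6.43 in vehicle, 7.33, 7.14 and 7.21 in VE50, and 6.88, 7.41 and 7.10 in VE100. The treated arrays lay between vehicle 3 and the other vehicle arrays. The difference was -0.22 ± 0.38 for VE50 and -0.31 ± 0.38 for VE100 (limma adjusted p = 0.949 and 0.820). Without vehicle 3 it was -0.72 and -0.82, past the study's criterion at both doses, with an adjusted p of 0.197 and 0.0951. With array weights it was -0.60 and -0.64 and also passed. Neither Mtf1 nor Slc30a1 was above the negative controls on any array.

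Of the importers, Slc39a14 encodes a carrier of zinc, iron and manganese of the hepatocyte surface. Its signal was 10.37, 10.34 and 7.70 in vehicle, 9.02, 10.16 and 10.14 in VE50, and 8.52, 9.95 and 9.71 in VE100. Vehicle 3 was lowest of all, and each treated group had its lowest value on replicate 1. The difference was 0.30 ± 0.68 (SE) for VE50 and -0.08 ± 0.68 for VE100. Without vehicle 3 both lay below 0, at -0.58 and -0.96, and the second passed the criterion (limma adjusted p = 0.296). Slc39a14 was above the negative controls on 7 of 9 arrays.

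Slc39a4, known as the zinc importer of the gut, had a signal of 8.13, 8.64 and 6.62 in vehicle, 9.16, 8.17 and 7.37 in VE50, and 7.95, 6.40 and 6.55 in VE100. It had the largest difference between the doses among the members, -1.27 ± 0.61 (SE), with a 95% confidence interval from -2.62 to 0.09 (limma adjusted p = 0.9997), and VE50 3 lay below VE100 1. That difference passed the criterion under 6 of 17 alternatives, among them without vehicle 3 (-1.27), without VE50 3 (-1.70) and without VE100 1 (-1.76). Against vehicle the difference was 0.44 ± 0.61 for VE50 and -0.83 ± 0.61 for VE100, and without vehicle 3 it was -0.15 and -1.42, the second past the criterion. Slc39a4 was above the negative controls on 3 of 9 arrays and on no VE100 array, where it lay at their 92.5th, 83.5th and 85.4th percentile, so the size of the dose difference is read against background signal. Of 7 enterocyte markers 6 lay above the negative controls on no array. The mean of the 7 ran from 5.97 to 6.48 in vehicle, 6.21 to 6.40 in VE50 and 6.15 to 6.57 in VE100. Their median difference from vehicle was 0.003 for VE50 and 0.253 for VE100, where all 7 lay above 0. Lct alone passed the criterion, lower for VE50 and higher between the doses, where 6.12% and 2.91% of all probe sets passed.

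Cp, which encodes the copper-carrying plasma ferroxidase ceruloplasmin, had a signal of 16.52, 16.50 and 16.82 in vehicle, 17.27, 16.37 and 16.12 in VE50, and 16.82, 16.76 and 16.42 in VE100. The groups overlapped, with a difference of -0.03 ± 0.30 (SE) for VE50 and 0.05 ± 0.30 for VE100 and intervals from -0.69 to 0.64 and from -0.61 to 0.72. Without vehicle 3 the difference was 0.08 and 0.16, so its sign for VE50 turned. Atp7b, the copper-exporting ATPase that is mutated in Wilson disease, lay between 6.88 and 7.20 on the treated arrays and at 7.66, 6.77 and 5.20 in vehicle. Its difference was 0.42 ± 0.49 for VE50 and 0.52 ± 0.49 for VE100. Without vehicle 1 it was 0.97 and 1.07, past the criterion at both doses, and without vehicle 3 it was -0.26 and -0.15, so its sign rested on the vehicle arrays. Atp7b lay above the negative controls on no array.

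As a group, 1 of 9 members passed the criterion for VE50, where 6.12% of all probe sets did, and 1 of 9 for VE100, where 9.48% did. Between the doses 0 members passed, against 2.91% of probe sets, and limma called 0 probe sets at an adjusted p under 0.05 in any of the 3 comparisons. Without vehicle 3, 2 members passed for VE50 (Slc30a10 and Slc30a1; background 13.5%) and 4 for VE100 (these and both importers; background 16.6%), all lower. Arrays did not overlap for 1 member at each dose, Slc30a10, where 10.9% (VE50) and 13.6% (VE100) of probe sets did not overlap in either direction, and for 0 members between the doses, where 10.0% did not. The members' median difference was -0.10 for VE50 and -0.31 for VE100, beside -0.01 and -0.01 over all probe sets, and 6 and 7 of 9 lay below 0. Without vehicle 3 the members' medians were -0.26 and -0.82, beside 0.02 and 0.03 over all probe sets.

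**Figure D4:**
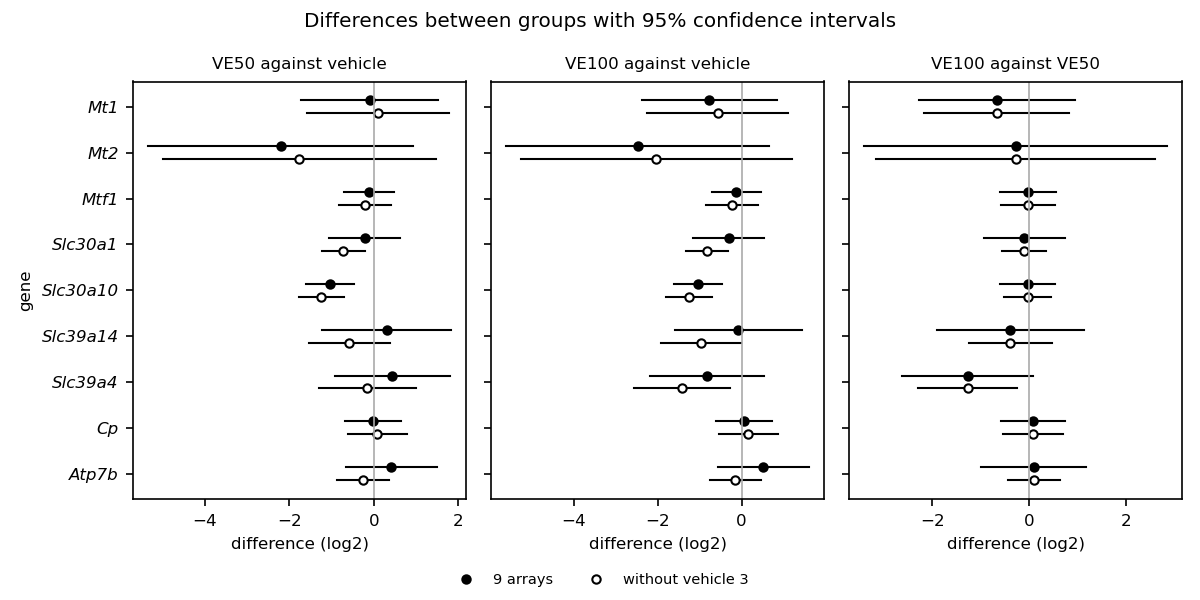
Log2 differences of the 9 members in the 3 comparisons from the limma fit, with 95% confidence intervals as lines; filled points use all 9 arrays and open points leave out vehicle 3. For Slc30a10 both intervals against vehicle lie below 0 at each dose, while for Mt2 they run from -5.60 to above 0.

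Beyond the members, 39 of 40 listed genes of zinc and copper transport and copper chaperones were measured. For VE50, 0 passed the criterion, against 6.12% of all probe sets. For VE100, 3 of 39 passed, a share below the 9.48% of all probe sets: Slc30a4, a zinc transporter gene, at -0.55 ± 0.23 (SE), Slc31a2, a copper transporter family gene, at -0.59 ± 0.20, and the metallothionein gene Mt4, known from squamous epithelia, at 1.05 ± 0.33. Slc30a4 signal was 8.29, 8.03 and 8.71 in vehicle and 7.81, 7.74 and 7.83 in VE100, and without vehicle 3 its difference of -0.37 no longer passed. Slc31a2 (6.96, 6.87 and 7.17 against 6.41, 6.27 and 6.54) and Mt4 (5.49, 6.57 and 5.74 against 7.34, 6.69 and 6.93) passed without vehicle 3 too, at -0.51 and 0.96. None of the 3 lay above the negative controls on any array. Between the doses 1 of 39 passed, also a share below that of all probe sets (2.91%): Slc30a9, a zinc transporter family gene, at -0.60 ± 0.24, with a signal of 10.14, 10.17 and 9.92 in VE50 and 9.03, 9.66 and 9.74 in VE100. The median over the 39 genes was 0.01 for VE50 and -0.19 for VE100, where 26 lay below 0, beside 51.6% of all probe sets. Without vehicle 3, 8 of the 39 passed the criterion at each dose, 3 higher and 5 lower for VE50 and 2 higher and 6 lower for VE100, where 13.5% and 16.6% of all probe sets passed. For VE100 in that setting the limma adjusted p passed for Sod3, extracellular superoxide dismutase (-1.44, adjusted p = 0.0201). It also passed for Sco1, a copper chaperone of cytochrome c oxidase (1.09, adjusted p = 0.0392), and for 434 of all 22206 probe sets. Both genes were chosen after their values were seen. With all 9 arrays they were at -0.75 and 0.49 and did not pass the criterion, with all 6 treated arrays within the vehicle range. Sod3 lay above the negative controls on 2 of 9 arrays and Sco1 on 0.

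Markers of other liver cells were read beside these values. The mean over 10 macrophage markers was 6.82 to 7.08 in vehicle, 6.42 to 7.39 in VE50 and 5.60 to 6.56 in VE100, so VE100 lay below vehicle while VE50 spanned it; 7 of the 10 were above the negative controls on no array and 0 on all arrays. Of the 10 macrophage markers, 1 (VE50) and 3 (VE100) passed the criterion, all lower, where 6.12% and 9.48% of all probe sets passed. The mean over 6 endothelial markers was 7.99, 8.18 and 7.08 in vehicle, 7.48 to 7.78 in VE50 and 7.32 to 7.64 in VE100, and 0 passed at either dose. Without vehicle 3, the endothelial genes Kdr and Cdh5 passed at both doses, both lower, and the list's median was -0.35 and -0.54. In that setting 13.5% and 16.6% of all probe sets passed. Without vehicle 3 the macrophage median was -0.09 for VE50, where 0 markers passed, and -0.85 for VE100, where 6 passed, all lower. The 10 neutrophil markers, of which 0 were above the negative controls on any array, had a median of -0.28 for VE50, -0.21 for VE100 and 0.04 between the doses. The neutrophil genes S100a8 for VE50 and Csf3r for VE100 passed, both lower. The medians of 6 biliary markers were 0.09 and -0.08, and those of 6 stellate cell markers were 0.12 and -0.22. With all 9 arrays no biliary marker passed against vehicle, and of the stellate markers Rgs5 alone passed, lower for VE50. The part of these cells in the signal of Slc30a10, Slc30a1 and the metallothioneins was not tested.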

How the data were processed

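Liver RNA of 9 ob/ob mouse samples was measured on Clariom S arrays. The authors deposited log2 signal per probe set and array; per the series' design text in the labels it was made with SST-RMA in Transcriptome Analysis Console 4.0.2, a method that adjusts background, scales arrays to each other and combines probes. A second deposited value table holds log2 values and includes controls; RMA is named per the submitters' processing notes, and its variant is not given in the sources used here. The authors' filtered table of VE100 against vehicle gives a signed fold score (negative where lower), p-values and FDR values per the file headers. Genome build and scan batches are not given in the sources used here. The authors' table of group averages was not used here.

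For all 22206 probe sets, group means over the 9 arrays were fitted with limma 3.58.1 (lmFit, eBayes) in R 4.3.3, two-sided, with Benjamini-Hochberg adjustment over all probe sets and 0.05 as threshold, and tested on simulated data. The study's criterion (p under 0.05, fold above 1.1) stands beside it. Promoters came from RefSeq, which held windows for 7 members; 27025 gene symbols have one. Detection was read against 5222 negative controls of that table, at their 95th percentile. The number of arrays limits the precision. Members and lists were chosen with earlier results of these data known. All 9 members are named, with listed genes past the criterion, the 5 most like the metallothioneins, and 6 genes of inducing pathways. Protein sequences were not used here.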

Additional observations from a re-analysis of the deposited data

How the results depend on the processing

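Each difference of the 9 members was recomputed under 17 alternatives per comparison: median-centred arrays, quantile normalization, the deposited value table, no probe sets of the lowest 25% by signal, only the groups compared, a trended robust variance, array weights, the replicate number as a block, and each array left out. The mean over probe sets of a gene was not run, since each member has 1. None of the called differences changed sign. Slc30a10 was the only member past the criterion in the fit to all 9 arrays and kept it throughout. Its sign could not turn when 1 array was left out, since all treated arrays lay below all vehicle arrays. The number of members past the criterion for VE50 (1) was 2 with array weights and ran from 1 to 2 when 1 array was left out. For VE100 (1) it was 3 with array weights and ran from 1 to 4. Between the doses (0) it was 1, Slc39a4, with array weights, with only these groups in the fit and with the replicate block, and ran from 0 to 1 without single arrays. The cause was not tested. Same-numbered arrays of different groups correlated between -0.237 and 0.208 in their deviations from the group means. Differently numbered arrays correlated between -0.225 and 0.265. With 3 arrays per group these values cannot show whether the number pairs arrays. The replicate block changed no other call. Depth has no direct counterpart here: 3 members lay above the negative controls on all arrays, 3 on some and 3 on none. Of all probe sets, 14.3% to 20.2% lay above them on single arrays.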
